A study of Mus musculus with 32 samples.

Results

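Bone marrow-derived macrophages (BMDMs) from Ifnar1-/- mice and from WT mice, each treated with LPS and zVAD, were compared here for cell cycle, cilium, organelle, membrane and cytoskeleton genes. The arrays were chosen by their labels, which give the genotype (Ifnar1_KO or WT) and the treatment (LPS and zVAD). They are 4 of the 32 arrays of the series, 2 for each genotype, and make up 2 of its 16 groups. The series asks how signalling through the type I interferon receptor shapes expression in macrophages exposed to LPS, IFNβ and inhibitors of cell death. It crossed the 2 genotypes with 8 treatments. Cells were left untreated, given zVAD alone, or given LPS or IFNβ, each by itself, together with zVAD, and together with zVAD and the RipK1 inhibitor Nec-1. The WT mice were C57BL/6 per the labels, and the knockout mice lack Ifnar1, a subunit of the receptor for type I interferons. Marrow cells of both were grown in macrophage colony stimulating factor (M-CSF) before RNA was taken after 6 h of treatment. LPS was used at 100 ng/mL per the labels, while the study's methods and legends give lower doses. Untreated BMDMs of both genotypes, 2 arrays each, were the baseline of each genotype's response. The labels do not say whether the 2 arrays of a group came from separate mice. The p-values therefore measure a spread between arrays of a group, pooled over the 16 groups of the series.

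LPS is a bacterial ligand of TLR4, and zVAD blocks caspases. With caspases blocked, LPS can drive macrophages into necroptosis, a lytic death that runs through the kinases RipK1 and RipK3 and the pore protein Mlkl, and that type I interferon is known to promote. M-CSF keeps marrow-derived macrophages dividing, and both LPS and interferon are known to slow that division. A cell that leaves the cycle can grow a primary cilium from its older centriole, so cilium, centriole and cell cycle genes are linked parts of cell biology.

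In LPS+zVAD, genes of mitosis and DNA repair were called higher in Ifnar1-/- than in WT BMDMs more often than genes at large. So were genes of the cilium base, peroxisome, ER, Golgi, mitochondrial import and nuclear pore. Axonemal, channel, flippase, plexin and adhesion receptor genes were not, but most of these lists are dim, and the dimmest genes were called less often. G1/S and ABC transporter genes were called more often in both directions, at 41.4% and 44.1% higher and 17.2% and 17.6% lower. V-ATPase and COPI/COPII genes were higher in 43.5% and 41.3%, with counts that fell under another scaling given below. Levels are given as log2 intensity after quantile normalization, and a gene is called where its adjusted p was under 0.05 (limma, Benjamini-Hochberg over all genes tested). Of 16036 genes tested, 6021 were called between the genotypes, 4125 higher (25.7%) and 1896 lower (11.8%) in Ifnar1-/-, and 3951 were called without Ifnar1-/- replicate 2. The share of the calls that were higher was 68.5%, but it was 51.7% when each array was shifted to its 75th percentile in place of quantile normalization. That scaling moved the median log2 difference of all genes from 0.13 to -0.21, so small differences in either direction depend on the scale. A call on the difference between the responses, each response being LPS+zVAD minus untreated within a genotype, was made for 1832 genes higher (11.4%) and 779 genes lower (4.86%) in Ifnar1-/-. That total of 2611 was 1732 without WT replicate 2, 1443 without Ifnar1-/- replicate 2 and 1530 without untreated Ifnar1-/- replicate 1, and it was 4888 with slide as a fixed block, which can be fitted since a slide holds both states.

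Each of the 4 slides of the series carried 1 genotype and 1 replicate of every treatment. Genotype and slide therefore cannot be told apart in any difference between genotypes within a treatment. The WT arrays were scanned on 2 days and the Ifnar1-/- arrays on 1 other day, so scan day and genotype cannot be told apart either. An effect that is the same for all arrays of a slide cancels in the difference between the responses. Probes well above background made up 65.4% and 61.4% of all probes on the WT LPS+zVAD arrays and 54% and 53.1% on the Ifnar1-/- arrays. With genes in 4 equal bins of brightness, the median log2 difference was 0.25 in the brightest bin and -0.13 in the dimmest. The share called higher was 11.7% in the dimmest bin, 28% and 32.2% in the bins between and 31.1% in the brightest. The axonemal, channel, plexin and adhesion receptor lists were dim, with median log2 intensities of 6.77, 7.89, 7.63 and 7.56. Their low shares of higher calls and their dimness cannot be told apart here. Replicate arrays correlated at 0.980 for WT and 0.990 for Ifnar1-/-, with median absolute log2 differences of 0.378 and 0.214. In such bulk RNA, fewer cells of a type and less RNA per cell cannot be told apart.

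The probe used for Ifnar1, the targeted gene, did not separate the genotypes in LPS+zVAD. Its log2 intensity was 12.38 and 11.18 on the WT arrays and 11.61 and 11.72 on the Ifnar1-/- arrays, and the groups overlapped (log2 difference -0.11, SE 0.65, adjusted p = 0.913). The gene's 3 probes all read lower in Ifnar1-/-, by log2 differences of -1.95 to -0.11, and over their mean the difference was -1.13 (adjusted p = 0.00441). Without WT replicate 1 the difference of the probe used was 0.49 (adjusted p = 0.703). In untreated BMDMs the same probe (chr16:91510673-91510732 on mm9) read 14.22 and 14.19 in WT and 11.90 and 11.87 in Ifnar1-/-. The WT level fell by 2.43 on the log2 scale with LPS+zVAD (adjusted p = 0.00427), to the level of the knockout. Where the probe lies relative to the disrupted part of the gene is not given in the sources used here. Interferon-induced genes separated the genotypes as labelled, with 143 of 175 lower and 1 higher in Ifnar1-/- BMDMs treated with LPS+zVAD.

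The defining macrophage markers Adgre1, Csf1r, Cd68 and Lyz2 were well above background on the 4 arrays, and none of them was called between the genotypes. Of 15 macrophage markers tested, 2 were higher (Fcgr3 and Spi1) and 2 lower (Mertk and Fcgr1) in Ifnar1-/-. Some neutrophil and granulocyte precursor genes differed too. Of 10 tested, Camp, Ltf, Ngp and S100a8 were called higher and Ly6g lower. Elane (log2 difference -0.43), Mpo (0.26), Prtn3 (0.01), Mmp8 (0.93) and S100a9 (2.33) were not called. The list's summed intensity was 24300 and 46220 on the WT arrays and 119900 and 105200 on the Ifnar1-/- arrays. On the latter it leans on the brightest members, S100a9 (log2 intensity 15.98 and 15.88) and S100a8 (14.84 and 14.61). In untreated BMDMs the same sum was 20370 and 42840 in WT and 72490 and 72660 in Ifnar1-/-. The mature neutrophil genes Retnlg and Cxcr2 were above background on 0 of the 4 arrays. None of the 4 calls held without WT replicate 1, and 2 held without Ifnar1-/- replicate 1. The part of these cells in the differences below was not tested.

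**Figure D1:**
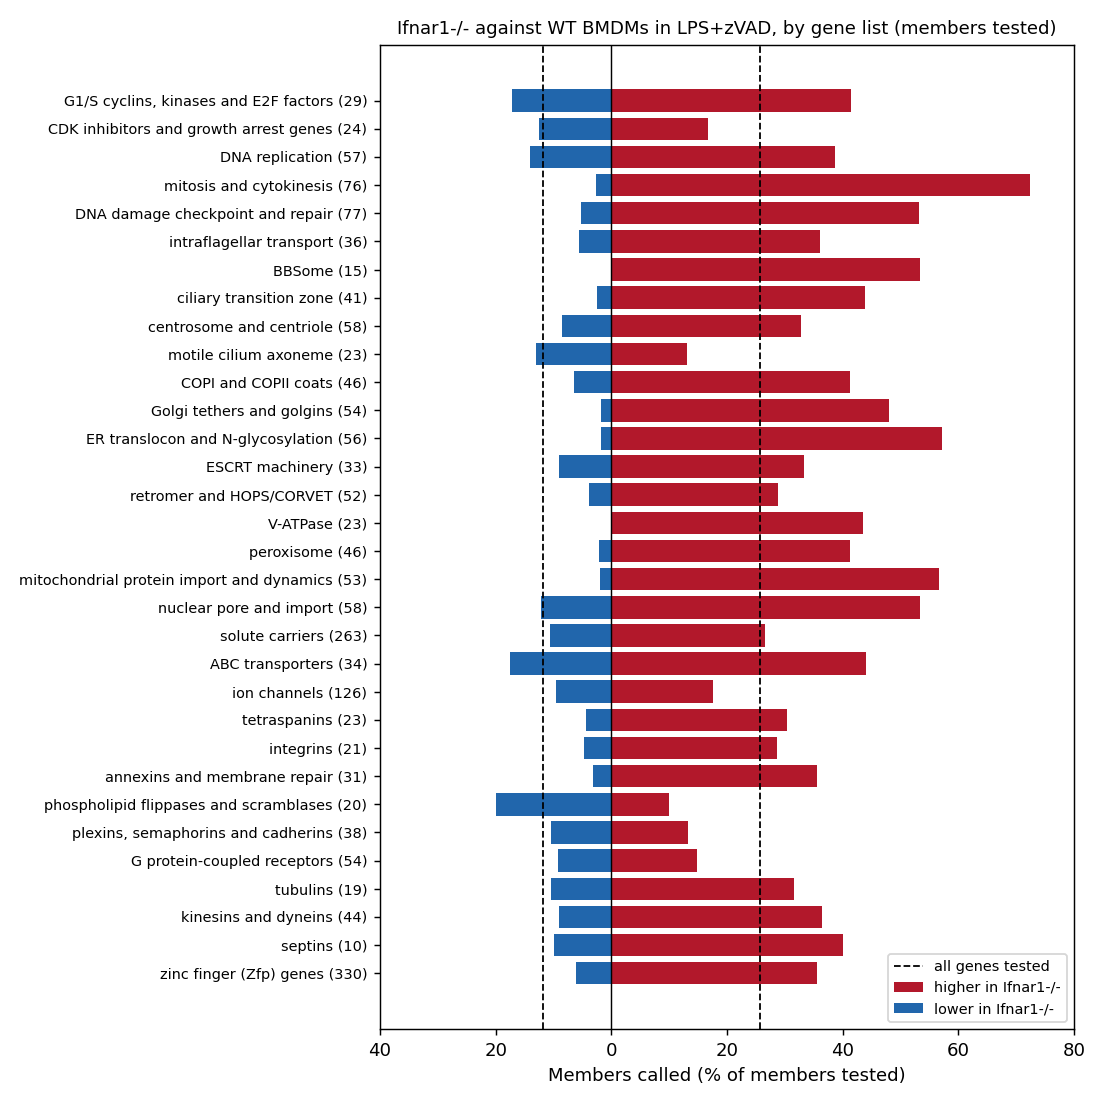
Share of the tested members of each gene list (percent, x axis) called higher (red, right) or lower (blue, left) in Ifnar1-/- than in WT BMDMs treated with LPS+zVAD; the number tested stands in brackets, and the dashed lines give the shares over all 16036 genes, 25.7% higher and 11.8% lower. Mitosis and cytokinesis has the longest bar, with 72.4% of its 76 members higher.

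Mitosis and cytokinesis genes, which build the spindle, hold and part the chromosomes and split the cell, were higher in Ifnar1-/- BMDMs. Of 76 members tested, 55 were higher and 2 lower in Ifnar1-/- than in WT, and 71 had a positive difference. The median log2 difference was 1.66, against 0.13 over all genes tested. It was 1.53 with the 75th percentile shift, under which 46 members were higher. The count of higher members was 36 without WT replicate 2 and 36 without Ifnar1-/- replicate 2. The neutrophil and granulocyte precursor list moved the same way, with median log2 differences of 1.27 untreated and 1.38 in LPS+zVAD, though Mpo, Elane and Prtn3 were not called. The part of such cells in the mitotic difference was not tested.

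Kif18a and Espl1 had the largest fitted differences of the list. Kif18a is a kinesin that caps the plus ends of kinetochore microtubules. Its log2 intensity was 2.31 and 2.29 on the WT arrays and 5.92 and 6.88 on the Ifnar1-/- arrays, and it was not well above background on either WT array. The difference was therefore a bound, at least 10.8-fold higher in Ifnar1-/- (adjusted p = 3.32e-05). Espl1, or separase, the protease that cuts cohesin at anaphase, had a log2 intensity of 4.51 and 3.53 on the WT arrays and 7.45 and 7.97 on the Ifnar1-/- arrays (log2 difference 3.69, SE 0.70, adjusted p = 0.000391), and 1 of its WT spots was well above background. The lowest Ifnar1-/- array lay well above the highest WT array.

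Plk1, a kinase of spindle assembly and mitotic entry, read 9.42 and 7.53 on the WT arrays and 11.40 and 11.45 on the Ifnar1-/- arrays (log2 difference 2.95, SE 0.71, adjusted p = 0.00271). For Plk1 the difference was 2.01 (adjusted p = 0.0704) without WT replicate 2. Ccnb1, the mitotic cyclin, read 9.76 and 8.14 on the WT arrays and 11.14 and 11.28 on the Ifnar1-/- arrays (log2 difference 2.26, SE 0.81, adjusted p = 0.0353). Top2a, which untangles replicated chromosomes, read 9.39 and 8.25 on the WT arrays and 10.53 and 10.56 on the Ifnar1-/- arrays (log2 difference 1.72, SE 0.66, adjusted p = 0.046). In each of these genes WT replicate 2 was the lowest array and the WT replicates lay further apart than the Ifnar1-/- replicates. For Ccnb1 the difference was 1.45 (adjusted p = 0.284) without WT replicate 2, 2.33 (adjusted p = 0.0967) without Ifnar1-/- replicate 1 and 2.19 (adjusted p = 0.135) without Ifnar1-/- replicate 2. Ccnb1 differed by 2.26 (adjusted p = 0.054) with no filter on dim probes. For Top2a the difference was 1.15 (adjusted p = 0.299) without WT replicate 2, 1.74 (adjusted p = 0.124) without Ifnar1-/- replicate 1 and 1.71 (adjusted p = 0.15) without Ifnar1-/- replicate 2. Top2a differed by 1.70 (adjusted p = 0.0595) with the 75th percentile shift and 1.72 (adjusted p = 0.0698) with no filter on dim probes. Mki67, a marker of cycling cells, read 13.21 and 12.91 on the WT arrays and 13.50 and 13.62 on the Ifnar1-/- arrays and was not called (log2 difference 0.50, SE 0.37, adjusted p = 0.311).

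Both members that were lower also act in mitosis. Tpx2, which carries Aurora A to the spindle, read 12.03 and 12.99 on the WT arrays and 10.27 and 10.41 on the Ifnar1-/- arrays (log2 difference -2.17, SE 0.40, adjusted p = 0.000273). Pttg1, or securin, which holds separase in check until anaphase, read 15.13 and 15.24 on the WT arrays and 12.79 and 12.51 on the Ifnar1-/- arrays (log2 difference -2.54, SE 0.23, adjusted p = 1.76e-07). On both genes the WT arrays were the higher ones, against the direction of the list. Tpx2 responded to LPS+zVAD by 3.54 in WT and -0.58 in Ifnar1-/-, and Pttg1 by 1.16 in WT and -0.49 in Ifnar1-/-.

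The difference in mitotic genes was already there without treatment. In untreated BMDMs 38 members were higher and 1 lower in Ifnar1-/-, with a median log2 difference of 1.67. Of all 16036 genes, 864 were higher and 531 lower without treatment, the background for untreated counts of this and later lists. LPS+zVAD lowered 39 members in WT (median -1.18) and 21 in Ifnar1-/- (median -1.05), against 33.2% and 18.2% of all genes lowered in WT and in Ifnar1-/-. Set against untreated WT, the list's median was -0.82 and -1.40 on the WT LPS+zVAD arrays, 0.41 and 0.68 on the Ifnar1-/- LPS+zVAD arrays and 1.65 and 1.70 on the untreated Ifnar1-/- arrays. The untreated WT arrays themselves lay at 0.39 and -0.39. The lower treated knockout array was thus only just above the higher untreated WT array for this list. The response itself differed for 4 members in the higher and 2 in the lower direction. The share higher, 5.26%, was below the 11.4% of all genes. The median difference between the responses was 0.14 and turned to -0.19 with the 75th percentile shift. Plk1, Espl1 and Kif18a were not called for it, with adjusted p of 0.648, 0.16 and 0.0525. With slide as a fixed block 13 responses differed in the higher and 7 in the lower direction, Plk1 and Kif18a among the former (adjusted p = 0.0315 and 0.0179). These comparisons share arrays, so their values are given side by side only.

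Promoter windows of 3 mitotic genes with different roles are shown because most of the list differed in 1 direction. Each holds the 250 bases before and 50 after the RefSeq transcript start on GRCm38.p6, read 5′ to 3′ on the gene's strand. Capitals mark the CCAAT box (CCAAT) and the cell cycle homology region, or CHR (TTTGAA), on either strand, elements known from promoters that are active in late cell cycle phases. The windows are Plk1 at chr7:122159185-122159484 (plus strand), Top2a at chr11:99024140-99024439 (minus strand) and Espl1 at chr15:102296043-102296342 (plus strand).
Plk1: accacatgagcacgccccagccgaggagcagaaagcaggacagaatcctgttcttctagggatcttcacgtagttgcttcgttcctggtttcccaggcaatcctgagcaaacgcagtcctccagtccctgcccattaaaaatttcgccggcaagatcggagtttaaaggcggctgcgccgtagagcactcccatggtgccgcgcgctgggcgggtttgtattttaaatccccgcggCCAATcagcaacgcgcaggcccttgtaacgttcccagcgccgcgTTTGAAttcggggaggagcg
Top2a: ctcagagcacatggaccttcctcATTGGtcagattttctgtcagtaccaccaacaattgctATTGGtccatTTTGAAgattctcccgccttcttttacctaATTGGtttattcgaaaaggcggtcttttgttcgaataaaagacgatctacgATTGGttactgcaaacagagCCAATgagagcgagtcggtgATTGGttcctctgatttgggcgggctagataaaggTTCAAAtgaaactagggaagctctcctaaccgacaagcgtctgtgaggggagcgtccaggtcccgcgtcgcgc
Espl1: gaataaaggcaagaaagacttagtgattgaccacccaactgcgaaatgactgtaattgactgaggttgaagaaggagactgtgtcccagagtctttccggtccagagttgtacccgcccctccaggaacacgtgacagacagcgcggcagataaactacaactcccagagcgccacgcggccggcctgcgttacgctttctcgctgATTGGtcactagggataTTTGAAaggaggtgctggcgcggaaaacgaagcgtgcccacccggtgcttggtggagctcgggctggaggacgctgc
Plk1 and Espl1 hold 1 match of each motif, and Top2a holds 6 CCAAT and 2 CHR matches. RefSeq windows were matched for 68 of the 76 mitotic genes, as 77 windows. A CHR match was found in 58.4% of these windows, against 13.2% of 15114 windows of the genes tested and 17.9% of all 32851 windows, and a CCAAT match in 64.9%, 37.7% and 37.4%. Among the 57 windows of mitotic genes that were higher, 56.1% held a CHR match. A match of these letters is a description of the window and was not tested against binding.

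DNA replication genes were divided. Of 57 members tested, 22 were higher and 8 lower in Ifnar1-/-, with a median log2 difference of 0.62. Orc5, a subunit of the origin recognition complex, read 5.36 and 4.65 on the WT arrays and 7.62 and 8.54 on the Ifnar1-/- arrays (log2 difference 3.07, SE 0.39, adjusted p = 7.29e-06). Clspn, or claspin, which guards stalled forks, was not well above background on either WT array and was at least 6.56-fold higher in Ifnar1-/- (adjusted p = 0.00221). For Clspn the adjusted p was 0.12 with normexp background correction. Mcm5, a subunit of the replicative helicase, read 9.96 and 8.93 on the WT arrays and 10.98 and 11.14 on the Ifnar1-/- arrays (log2 difference 1.61, SE 0.34, adjusted p = 0.00103).

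The opposite direction was found for the licensing factor Cdc6, which loads that helicase onto origins. Its log2 intensity was 8.97 and 10.43 on the WT arrays and 6.25 and 6.22 on the Ifnar1-/- arrays (log2 difference -3.47, SE 0.45, adjusted p = 9.04e-06). Tyms, or thymidylate synthase, which makes the thymidine precursor of DNA, read 11.98 and 11.78 on the WT arrays and 9.86 and 9.07 on the Ifnar1-/- arrays (log2 difference -2.41, SE 0.40, adjusted p = 0.000115). Pcna, the sliding clamp of the polymerases, read 16.52 and 16.71 on the WT arrays and 15.95 and 15.77 on the Ifnar1-/- arrays (log2 difference -0.75, SE 0.19, adjusted p = 0.00392). The 3 genes were higher on both WT arrays than on either Ifnar1-/- array. Their responses to LPS+zVAD were 2.72 in WT and -1.52 in Ifnar1-/- for Cdc6, 3.72 in WT and 1.42 in Ifnar1-/- for Tyms and 1.37 in WT and -0.58 in Ifnar1-/- for Pcna. The count of lower members, 8, was 4 without WT replicate 2 and 4 without Ifnar1-/- replicate 1.

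In untreated BMDMs 13 replication members were higher and 0 lower in Ifnar1-/- (median 0.64). LPS+zVAD lowered 30 members in WT (median -0.82) and 37 in Ifnar1-/- (median -0.97), against 33.2% and 18.2% of all genes. The Cdc6 promoter window, at chr11:98907901-98908200 (plus strand) on GRCm38.p6, is shown with its match to an E2F site (TTCCCGC, either strand) in capitals, since E2F factors are known to drive replication genes.
Cdc6: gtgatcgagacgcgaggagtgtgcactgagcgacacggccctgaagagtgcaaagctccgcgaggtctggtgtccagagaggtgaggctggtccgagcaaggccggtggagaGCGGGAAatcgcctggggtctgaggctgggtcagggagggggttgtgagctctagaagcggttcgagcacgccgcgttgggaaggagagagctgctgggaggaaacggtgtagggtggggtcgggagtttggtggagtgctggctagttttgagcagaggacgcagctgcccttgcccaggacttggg
An E2F match was found in 38.6% of the 57 windows of 47 replication genes, against 7.23% of the windows of genes tested.

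Genes of the G1/S step, in which cyclin D and cyclin E kinases release E2F, were also divided. Of 29 tested, 12 were higher and 5 lower (median 0.44). Ccnd1 and Ccnd2, D cyclins that report growth factor signals to the cycle, were lower in Ifnar1-/-. Ccnd1 read 11.89 and 12.41 on the WT arrays and 10.11 and 10.40 on the Ifnar1-/- arrays (log2 difference -1.89, SE 0.43, adjusted p = 0.0018), and Ccnd2 read 10.39 and 10.13 on the WT arrays and 7.53 and 8.28 on the Ifnar1-/- arrays (log2 difference -2.36, SE 0.43, adjusted p = 0.000286). Ccnd1 was higher in Ifnar1-/- without treatment, by 2.46, and its responses were 0.58 in WT and -3.77 in Ifnar1-/-, a difference of -4.35, adjusted p = 0.000112. For Ccnd2 they were 4.63 in WT and 1.45 in Ifnar1-/- (difference -3.18, adjusted p = 0.00155).

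Ccna2, the cyclin of S phase and G2, was higher in Ifnar1-/- at 8.74 and 6.58 on the WT arrays and 10.30 and 10.47 on the Ifnar1-/- arrays (log2 difference 2.73, SE 0.81, adjusted p = 0.0119). For Ccna2 the difference was 1.65 (adjusted p = 0.193) without WT replicate 2 and 2.64 (adjusted p = 0.0668) without Ifnar1-/- replicate 2. Rbl2, or p130, a pocket protein that represses E2F targets in quiescent cells, read 6.15 and 6.16 on the WT arrays and 8.28 and 8.85 on the Ifnar1-/- arrays (log2 difference 2.41, SE 0.43, adjusted p = 0.000233). Ccne2 did not pass the filter on dim probes and has no value.

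Inhibitors of cyclin-dependent kinases and growth arrest genes were called in both directions. Of 24 tested, 4 were higher and 3 lower, and the median of 0.04 turned to -0.23 with the 75th percentile shift. Cdkn2b, or p15, which blocks Cdk4 and Cdk6, read 8.21 and 8.01 on the WT arrays and 11.48 and 11.64 on the Ifnar1-/- arrays (log2 difference 3.45, SE 0.70, adjusted p = 0.000675). Cdkn1b, or p27, read 10.53 and 10.30 on the WT arrays and 11.62 and 11.86 on the Ifnar1-/- arrays (log2 difference 1.32, SE 0.29, adjusted p = 0.00132), with responses of -2.63 in WT and -0.59 in Ifnar1-/-. Cdkn1a, or p21, read 14.71 and 14.38 on the WT arrays and 13.92 and 13.96 on the Ifnar1-/- arrays and was not called (log2 difference -0.60, SE 0.32, adjusted p = 0.157); its probes disagreed in sign.

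Sesn1 and Sesn3, sestrins that dampen mTORC1 signalling, went in opposite directions. Sesn1 read 9.21 and 9.75 on the WT arrays and 11.02 and 11.16 on the Ifnar1-/- arrays (log2 difference 1.61, SE 0.43, adjusted p = 0.00568), and Sesn3 read 10.22 and 11.70 on the WT arrays and 8.86 and 8.70 on the Ifnar1-/- arrays (log2 difference -2.18, SE 0.38, adjusted p = 0.000196). For Sesn1 the difference was 1.35 (adjusted p = 0.06) without WT replicate 1. Gadd45g, a stress-induced growth arrest gene, was lower at 16.11 and 16.06 on the WT arrays and 14.87 and 14.44 on the Ifnar1-/- arrays (log2 difference -1.43, SE 0.28, adjusted p = 0.000569).

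DNA damage checkpoint and repair genes were higher in Ifnar1-/- in LPS+zVAD. Of 77 tested, 41 were higher and 4 lower, with a median log2 difference of 0.96 (0.77 with the 75th percentile shift). Without treatment 8 were higher and 1 lower, with a median of 0.19. LPS+zVAD lowered 50 members in WT (median -1.55) and 31 in Ifnar1-/- (median -0.79), against 33.2% and 18.2% of all genes. The responses differed for 18 members in the higher direction and 1 in the lower, a share of 23.4% higher against 11.4% of all genes.

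Mlh3, a mismatch repair protein that also acts at meiotic crossovers, read 2.62 and 2.59 on the WT arrays and 6.35 and 6.99 on the Ifnar1-/- arrays. It was not well above background on either WT array and was at least 13.1-fold higher in Ifnar1-/- (adjusted p = 0.000119). Ercc6, needed for repair of transcribed strands, was at least 10.7-fold higher by the same rule (adjusted p = 0.000478). Atm, the kinase that senses double-strand breaks, was lower at 8.49 and 10.17 on the WT arrays and 7.66 and 8.20 on the Ifnar1-/- arrays (log2 difference -1.40, SE 0.45, adjusted p = 0.019). For Atm the difference was -0.56 (adjusted p = 0.374) without WT replicate 2 and -1.13 (adjusted p = 0.135) without Ifnar1-/- replicate 1. Atm differed by -1.25 (adjusted p = 0.0614) over the mean of its probes. Brca1 did not pass the filter and has no value.

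**Figure D2:**
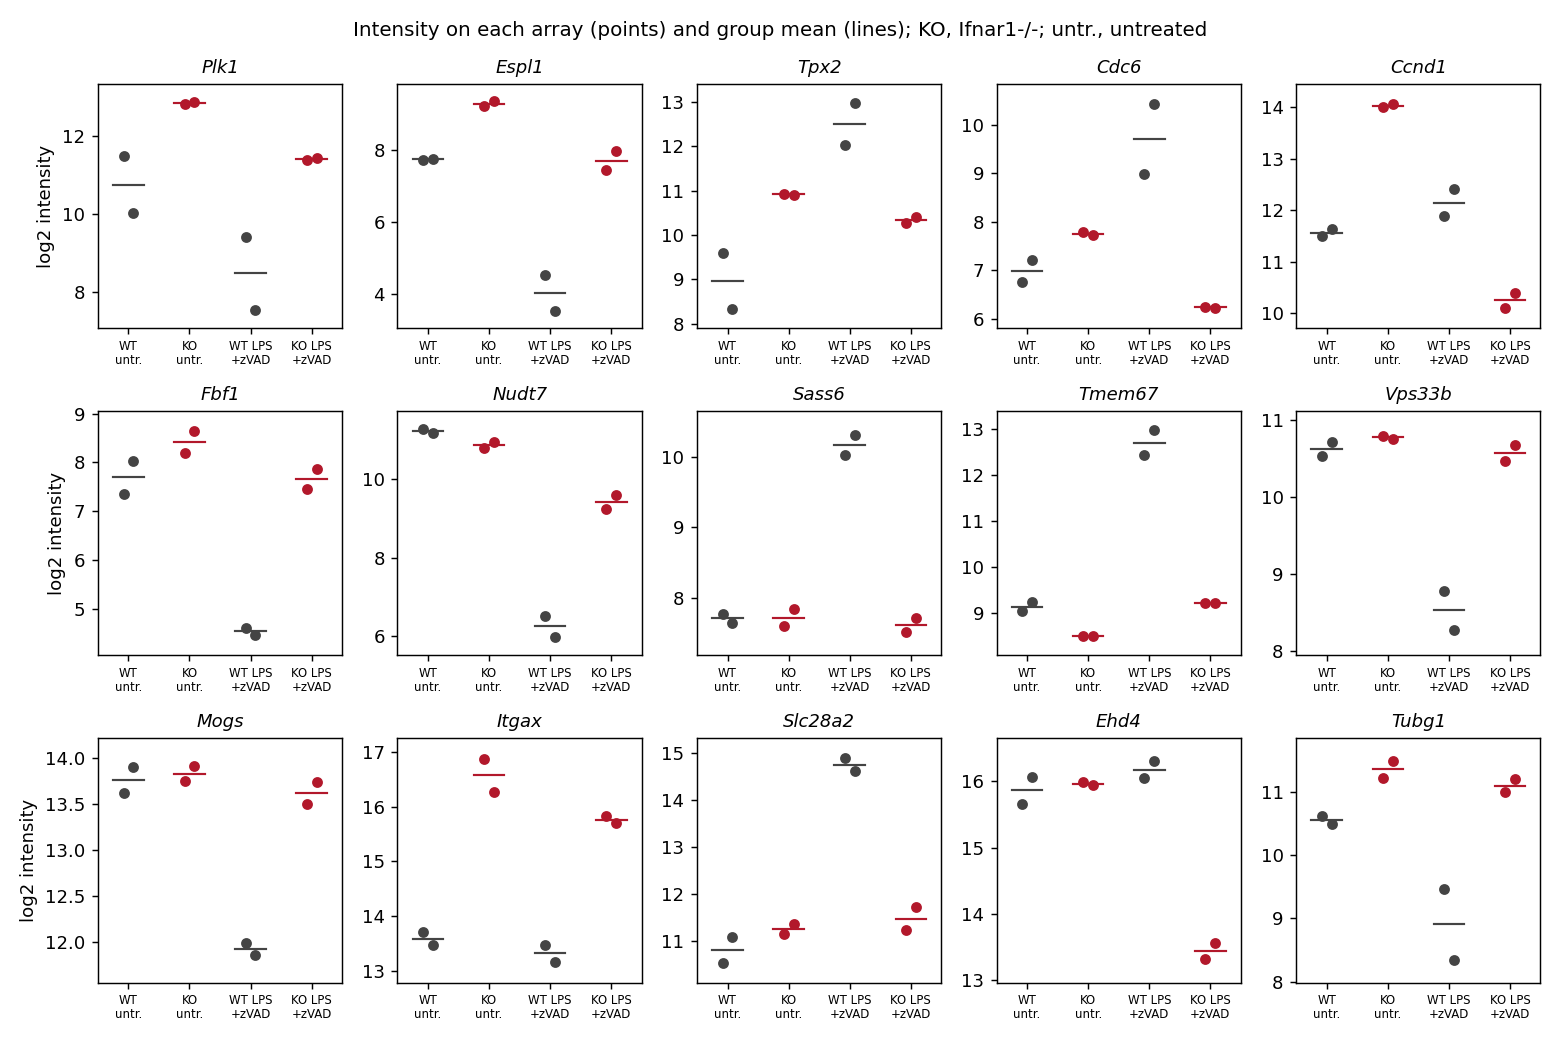
Log2 intensity (y axis, log2 scale) of 15 genes on each array (points) with the group mean (line), for untreated and LPS+zVAD-treated WT (grey) and Ifnar1-/- (red, KO) BMDMs. Plk1, Espl1 and Itgax are higher in the knockout in both states, Fbf1, Nudt7, Vps33b, Mogs and Tubg1 are lowest on the treated WT arrays, and Tpx2, Cdc6, Sass6, Tmem67 and Slc28a2 are highest there.

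Cilium and centrosome genes were mostly higher where they were called. The primary cilium is an antenna-like organelle of resting cells. Over 173 genes tested, motile cilium genes included, 61 were higher (35.3%) and 11 lower (6.36%) in Ifnar1-/- treated with LPS+zVAD. Of all genes, 25.7% were higher and 11.8% lower. In untreated BMDMs 7 were higher and 4 lower, and the median difference was close to 0. The total of 72 called members was 45 without Ifnar1-/- replicate 2.

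Intraflagellar transport (IFT) moves cargo along the cilium in complexes driven by kinesin-2 and dynein-2. Of 36 members tested, 13 were higher and 2 lower (median 0.46, or 0.37 with the 75th percentile shift). Ttc30b and Ttc30a2, near-identical copies of an IFT-B subunit whose probes can cross-hybridize, led the list. Ttc30b read 3.79 and 2.93 on the WT arrays and 6.46 and 6.5 on the Ifnar1-/- arrays, and Ttc30a2 read 3.52 and 2.26 on the WT arrays and 5.34 and 4.98 on the Ifnar1-/- arrays. Neither was well above background on the WT arrays, Ttc30a2 was so on 1 of the 2 Ifnar1-/- arrays, and they were at least 8.22-fold and at least 3.61-fold higher in Ifnar1-/- (adjusted p = 1.39e-05 and 0.00042). For Ttc30a2 the adjusted p was 0.236 with normexp background correction. Their responses were -5.82 in WT and -2.73 in Ifnar1-/- for Ttc30b and -4.79 in WT and -2.35 in Ifnar1-/- for Ttc30a2.

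Ift172, a core IFT-B subunit, went the other way at 9.82 and 9.73 on the WT arrays and 8.45 and 8.85 on the Ifnar1-/- arrays (log2 difference -1.13, SE 0.34, adjusted p = 0.0144). For Ift172 the difference was -1.08 (adjusted p = 0.0662) without WT replicate 1, -1.17 (adjusted p = 0.0506) without WT replicate 2 and -0.93 (adjusted p = 0.111) without Ifnar1-/- replicate 1. Wdr34, an intermediate chain of dynein-2, was lower by a smaller amount at 16.51 and 16.70 on the WT arrays and 16.16 and 15.91 on the Ifnar1-/- arrays (log2 difference -0.57, SE 0.16, adjusted p = 0.00895). For Wdr34 the difference was -0.47 (adjusted p = 0.0786) without WT replicate 2 and -0.44 (adjusted p = 0.116) without Ifnar1-/- replicate 2. Ift88, needed for assembly of the cilium, read 7.77 and 7.73 on the WT arrays and 7.97 and 8.51 on the Ifnar1-/- arrays and was not called (log2 difference 0.49, SE 0.30, adjusted p = 0.222). Arl13b, a GTPase of the ciliary membrane, was not called either (log2 difference -0.49, SE 0.36, adjusted p = 0.317), and its probes disagreed in sign.

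In untreated BMDMs no IFT member was called between the genotypes, and the median was -0.04. LPS+zVAD lowered 25 members in WT (median -1.47) and 19 in Ifnar1-/- (median -1.02), and raised 1 and 0. Of all genes, 33.2% were lowered in WT and 18.2% in Ifnar1-/-. Responses differed for 10 in the higher direction, or 27.8% against 11.4% of all genes, and 1 in the lower. That count of 10 was 4 without WT replicate 2, 3 without Ifnar1-/- replicate 2, 5 without WT untreated replicate 2, 5 without Ifnar1-/- untreated replicate 1 and 5 without Ifnar1-/- untreated replicate 2.

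Windows of an IFT gene on each side of the comparison are shown, Ttc30a2 at chr2:75978130-75978429 (minus strand) and Ift172 at chr5:31291065-31291364 (minus strand), again on GRCm38.p6. Capitals mark GTTGCC, a core of the site of the RFX factors known from ciliary genes, and CCAAT.
Ttc30a2: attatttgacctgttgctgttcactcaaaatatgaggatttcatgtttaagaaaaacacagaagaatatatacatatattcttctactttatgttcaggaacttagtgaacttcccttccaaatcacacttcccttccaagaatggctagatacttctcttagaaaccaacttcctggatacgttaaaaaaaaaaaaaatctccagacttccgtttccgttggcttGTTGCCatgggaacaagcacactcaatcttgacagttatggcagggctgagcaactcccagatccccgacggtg
Ift172: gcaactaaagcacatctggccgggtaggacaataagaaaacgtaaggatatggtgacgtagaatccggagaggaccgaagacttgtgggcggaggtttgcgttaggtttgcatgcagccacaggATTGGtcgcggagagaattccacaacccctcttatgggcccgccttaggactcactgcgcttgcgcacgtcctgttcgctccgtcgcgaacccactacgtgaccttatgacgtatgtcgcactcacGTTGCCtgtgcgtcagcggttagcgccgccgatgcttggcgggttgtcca
Each holds 1 GTTGCC match, and Ift172 also holds 1 CCAAT match. GTTGCC was found in 41.9% of the 31 windows of IFT genes, 30% of the 50 windows of transition zone genes and 25% of the 16 windows of BBSome genes, against 12.3% of the windows of genes tested. The gene that was higher and the gene that was lower both hold the motif.

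The BBSome, a coat that carries membrane proteins in and out of the cilium, and its chaperonin-like partners had 8 of 15 members higher and 0 lower (median 0.76). The count of higher members was 4 without WT replicate 2 and 4 without Ifnar1-/- replicate 2. Bbs12, a chaperonin-like assembly factor, read 2.41 and 3.36 on the WT arrays and 5.02 and 5.70 on the Ifnar1-/- arrays. It was not well above background on the WT arrays and was at least 4.81-fold higher in Ifnar1-/- (adjusted p = 0.000997). For Bbs12 the adjusted p was 0.201 with normexp background correction. Mkks, its partner, read 8.89 and 8.57 on the WT arrays and 10.55 and 10.94 on the Ifnar1-/- arrays (log2 difference 2.02, SE 0.59, adjusted p = 0.0111). For Mkks the difference was 1.86 (adjusted p = 0.0702) without WT replicate 2 and 1.82 (adjusted p = 0.0823) without Ifnar1-/- replicate 2. Bbs1, a core subunit that was well above background on 1 Ifnar1-/- array alone, was at least 2.73-fold higher (adjusted p = 0.0484), but its probes disagreed in sign and with a filter that asks for signal on the 4 arrays another probe gave a log2 difference of -0.20. The adjusted p of Bbs1 was 0.34 without WT replicate 2 and 0.307 without Ifnar1-/- replicate 2. For Bbs1 the adjusted p was 0.122 with the 75th percentile shift and 0.221 with normexp background correction and 0.0732 with no filter on dim probes and 0.0572 in the authors' normalized table and 0.12 over the mean of its probes. Without treatment no member was called and the median was -0.01.

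At the transition zone and distal appendages, the gate and anchor at the base of the cilium, 18 of 41 members were higher and 1 lower (median 0.62). The count of higher members was 11 without WT replicate 1 and 9 without Ifnar1-/- replicate 2. Fbf1, a distal appendage protein, read 4.61 and 4.45 on the WT arrays and 7.45 and 7.87 on the Ifnar1-/- arrays (log2 difference 3.13, SE 0.37, adjusted p = 3.67e-06), and Tmem17, of the transition zone membrane, read 5.34 and 4.02 on the WT arrays and 7.44 and 7.74 on the Ifnar1-/- arrays (log2 difference 2.91, SE 0.34, adjusted p = 2.81e-06), with 1 WT spot well above background. The lower member was Tmem67, or meckelin, of the same membrane complex as Tmem17, at 12.43 and 12.97 on the WT arrays and 9.21 and 9.23 on the Ifnar1-/- arrays (log2 difference -3.48, SE 0.33, adjusted p = 2.26e-07). Its responses were 3.56 in WT and 0.71 in Ifnar1-/-, against -2.85 in WT and -0.65 in Ifnar1-/- for Tmem17. Cep290 and Cep164, scaffolds of the gate and of the appendages, were not called (log2 difference 0.57, SE 0.52, adjusted p = 0.423 and log2 difference 0.23, SE 0.35, adjusted p = 0.652).

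Of 58 centrosome and centriole genes tested, 19 were higher and 5 lower (median 0.60). Cep78, a centriole wall protein, read 4.23 and 3.28 on the WT arrays and 6.72 and 7.23 on the Ifnar1-/- arrays (log2 difference 3.22, SE 0.29, adjusted p = 1.3e-07), and Tubgcp5, a subunit of the γ-tubulin ring, read 4.15 and 3.58 on the WT arrays and 5.89 and 6.49 on the Ifnar1-/- arrays (log2 difference 2.32, SE 0.30, adjusted p = 9.46e-06). Each was well above background on 1 of the 2 WT arrays. The responses were -3.20 in WT and -0.26 in Ifnar1-/- for Cep78 and -2.89 in WT and -0.45 in Ifnar1-/- for Tubgcp5. Sass6, which forms the cartwheel that seeds a new centriole, was lower at 10.03 and 10.31 on the WT arrays and 7.52 and 7.71 on the Ifnar1-/- arrays (log2 difference -2.56, SE 0.18, adjusted p = 5.23e-09). Cenpj, which sets centriole length, was lower at 11.27 and 11.98 on the WT arrays and 9.22 and 9.64 on the Ifnar1-/- arrays (log2 difference -2.19, SE 0.27, adjusted p = 4.58e-06). These centriole duplication genes responded by 2.47 in WT and -0.10 in Ifnar1-/- for Sass6 and by 1.56 in WT and -0.59 in Ifnar1-/- for Cenpj. Pcnt, the pericentriolar scaffold, was not called (log2 difference 0.32, SE 0.40, adjusted p = 0.561).

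Motile cilium genes gave no such direction. Only 23 of 44 listed members passed the filter, 3 were higher and 3 lower, and the median was -0.43. Mcidas, a driver of multiciliated cells, read 10.59 and 9.78 on the WT arrays and 12.26 and 11.93 on the Ifnar1-/- arrays (log2 difference 1.91, SE 0.59, adjusted p = 0.0148). For Mcidas the difference was 1.5 (adjusted p = 0.13) without WT replicate 2 and 1.75 (adjusted p = 0.0829) without Ifnar1-/- replicate 1. Rsph1, Rsph4a and Rsph9 are proteins of the radial spoke. Rsph1 was higher (1.13, adjusted p = 0.00946), Rsph9 lower (-1.48, adjusted p = 0.0037) and Rsph4a a bound, at least 3.33-fold lower (adjusted p = 0.00151), where neither Ifnar1-/- array was well above background. For Rsph1 the difference was 1.0 (adjusted p = 0.0672) without WT replicate 1 and 0.85 (adjusted p = 0.128) without Ifnar1-/- replicate 2. Rsph1 differed by 0.51 (adjusted p = 0.159) with the 75th percentile shift. Rsph4a had an adjusted p of 0.0566 without Ifnar1-/- replicate 2.

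**Figure D3:**
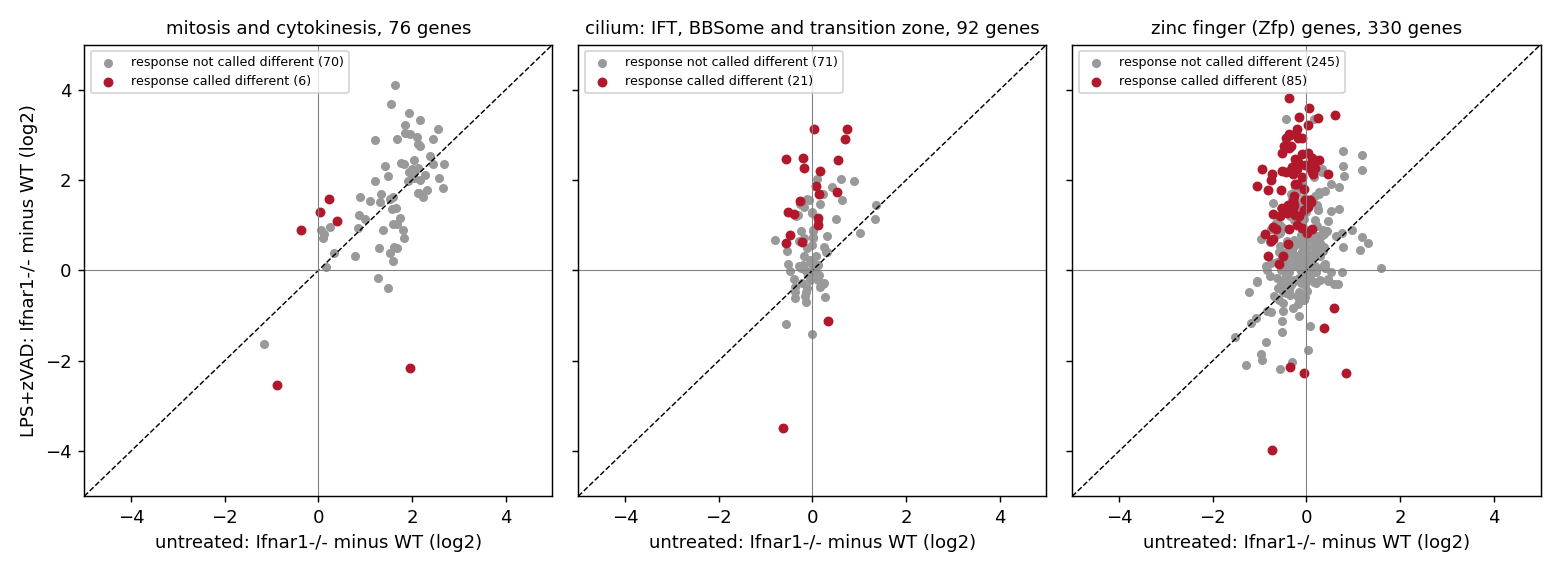
Log2 difference between Ifnar1-/- and WT in untreated BMDMs (x axis) and in LPS+zVAD (y axis) for each gene of 3 sets; red points were called for a difference between the responses, and the dashed line marks equal differences. Mitotic genes lie near the dashed line to the right of 0, with medians of 1.67 and 1.66, while cilium and Zfp genes spread upwards around 0 on the x axis.

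Zinc finger genes named Zfp, many of which encode DNA-binding repressors of the KRAB family, were the largest single list outside these themes. Of 330 tested, 117 were higher (35.5%) and 20 lower in Ifnar1-/-, with a median of 0.56 (0.34 with the 75th percentile shift). Without treatment 1 was higher and 9 lower (median -0.18). LPS+zVAD lowered 187 in WT (median -1.09) and 62 in Ifnar1-/- (median -0.37), against 33.2% and 18.2% of all genes. The count in Ifnar1-/- was close to the share of all genes. The responses differed for 79 genes in the higher and 6 in the lower direction, or 23.9% against 11.4% of all genes. That count of 79 was 43 without Ifnar1-/- replicate 2, 45 without WT untreated replicate 2 and 46 without Ifnar1-/- untreated replicate 1. With slide as a fixed block 153 and 12 were called. These genes are dim, with a median log2 intensity of 8.86 over the list, and close relatives can cross-hybridize.

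Organelle genes were called higher in Ifnar1-/- more often than genes at large. Of 420 tested, 192 were higher (45.7%) and 19 lower (4.52%) in Ifnar1-/-, with a median log2 difference of 0.47. Without treatment 42 were higher and 5 lower (median 0.18). The total of 211 called members was 140 without Ifnar1-/- replicate 2.

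The ER translocon brings new proteins into the ER, and the enzymes of N-glycosylation build and trim their sugars. Of 56 tested, 32 were higher and 1 lower (median 0.55). Mogs, the first glucosidase of glycan trimming, read 11.99 and 11.87 on the WT arrays and 13.49 and 13.73 on the Ifnar1-/- arrays (log2 difference 1.68, SE 0.22, adjusted p = 1.2e-05). Srprb, a subunit of the receptor that docks ribosomes, read 8.71 and 8.32 on the WT arrays and 9.95 and 10.60 on the Ifnar1-/- arrays (log2 difference 1.76, SE 0.28, adjusted p = 6.51e-05). Sec61a1, the pore itself, read 14.64 and 14.33 on the WT arrays and 14.97 and 14.89 on the Ifnar1-/- arrays (log2 difference 0.45, SE 0.15, adjusted p = 0.0273), and its difference turned to -0.0805 with the 75th percentile shift. For Sec61a1 the difference was 0.29 (adjusted p = 0.233) without WT replicate 2, 0.41 (adjusted p = 0.125) without Ifnar1-/- replicate 1 and 0.49 (adjusted p = 0.0767) without Ifnar1-/- replicate 2. Sec61a1 differed by 0.45 (adjusted p = 0.0545) with no filter on dim probes and 0.53 (adjusted p = 0.0563) in the authors' normalized table. Tram2, an accessory of the pore, was the lower member at 9.79 and 10.12 on the WT arrays and 9.0 and 9.24 on the Ifnar1-/- arrays (log2 difference -0.84, SE 0.25, adjusted p = 0.0123). For Tram2 the difference was -0.67 (adjusted p = 0.11) without WT replicate 2 and -0.72 (adjusted p = 0.0907) without Ifnar1-/- replicate 1.

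COPII coats carry cargo from the ER to the Golgi, and COPI coats bring it back. Of 46 tested, 19 were higher and 3 lower (median 0.41), and the higher count was 12 without Ifnar1-/- replicate 2. With the 75th percentile shift the median was 0.08 and 11 members were higher. Kdelr3, a receptor that retrieves ER proteins, was not well above background on the WT arrays and was at least 7.76-fold higher (adjusted p = 0.00196). Copg1, a COPI subunit, read 7.22 and 6.84 on the WT arrays and 8.84 and 9.27 on the Ifnar1-/- arrays (log2 difference 2.02, SE 0.24, adjusted p = 4.05e-06), but its probes disagreed in sign. Arf4, a GTPase of COPI coats, was lower at 14.69 and 15.05 on the WT arrays and 13.70 and 13.68 on the Ifnar1-/- arrays (log2 difference -1.18, SE 0.19, adjusted p = 8.89e-05), with responses of 2.03 in WT and 0.43 in Ifnar1-/-. Sec24b, a cargo adaptor of COPII, was lower at 14.42 and 14.84 on the WT arrays and 13.89 and 14.06 on the Ifnar1-/- arrays (log2 difference -0.65, SE 0.20, adjusted p = 0.0144). For Sec24b the difference was -0.44 (adjusted p = 0.168) without WT replicate 2 and -0.57 (adjusted p = 0.0972) without Ifnar1-/- replicate 1. The COPI subunit Copa and the COPII adaptor Sec24d were not called (log2 difference 0.43, SE 0.21, adjusted p = 0.12 and log2 difference 0.48, SE 0.26, adjusted p = 0.166).

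Golgi tethers and golgins catch vesicles at the Golgi. Of 54 tested, 26 were higher and 1 lower (median 0.51, or 0.49 with the 75th percentile shift), and the higher count was 14 without Ifnar1-/- replicate 2. Golga1, a golgin of the trans-Golgi, read 7.42 and 7.08 on the WT arrays and 8.84 and 9.19 on the Ifnar1-/- arrays (log2 difference 1.77, SE 0.22, adjusted p = 5.52e-06), and the responses were -2.90 in WT and -0.60 in Ifnar1-/-. Golga3, another golgin, was lower at 13.83 and 13.51 on the WT arrays and 12.17 and 12.41 on the Ifnar1-/- arrays (log2 difference -1.38, SE 0.21, adjusted p = 4e-05). Cog5, a subunit of the COG tether, was called higher (adjusted p = 0.00396) but was well above background on no array of either group, so no fold is given. Cog5 had an adjusted p of 0.0536 without WT replicate 2. For Cog5 the adjusted p was 0.0797 with normexp background correction. Golga4 and Cog3 were not called (log2 difference -0.21, SE 0.21, adjusted p = 0.453 and log2 difference 0.05, SE 0.24, adjusted p = 0.9).

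In the endosomal and lysosomal system the retromer, sorting nexin and HOPS/CORVET list had 15 of 52 members higher and 2 lower (median 0.23), close to the 25.7% of all genes. Vps33b, which controls fusion of late endosomes, read 8.79 and 8.27 on the WT arrays and 10.47 and 10.68 on the Ifnar1-/- arrays (log2 difference 2.05, SE 0.18, adjusted p = 6.95e-08). Tgfbrap1, a CORVET subunit of early endosomes, read 6.69 and 6.62 on the WT arrays and 8.79 and 8.83 on the Ifnar1-/- arrays (log2 difference 2.15, SE 0.20, adjusted p = 2.34e-07). The responses were -2.09 in WT and -0.20 in Ifnar1-/- for Vps33b and -2.67 in WT and -0.45 in Ifnar1-/- for Tgfbrap1. Snx2, a sorting nexin of the retromer coat, was lower at 14.55 and 14.22 on the WT arrays and 13.36 and 13.47 on the Ifnar1-/- arrays (log2 difference -0.97, SE 0.21, adjusted p = 0.00112). Rab5a, the GTPase of early endosomes, was lower at 13.87 and 14.04 on the WT arrays and 13.40 and 13.52 on the Ifnar1-/- arrays (log2 difference -0.50, SE 0.13, adjusted p = 0.0056). For Rab5a the difference was -0.42 (adjusted p = 0.0566) without WT replicate 2 and -0.44 (adjusted p = 0.0549) without Ifnar1-/- replicate 1. Vps35, the core of retromer, was not called (log2 difference 0.06, SE 0.21, adjusted p = 0.848).

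ESCRT proteins bud membranes away from the cytosol and also repair plasma membrane pores, a process known to delay necroptotic lysis. Of 33 tested, 11 were higher and 3 lower, and the median of 0.13 turned to -0.09 with the 75th percentile shift. Chmp4b, the main filament subunit, was lower at 16.82 and 16.40 on the WT arrays and 15.49 and 15.34 on the Ifnar1-/- arrays (log2 difference -1.20, SE 0.45, adjusted p = 0.0453). For Chmp4b the difference was -0.98 (adjusted p = 0.211) without WT replicate 1, -1.41 (adjusted p = 0.0716) without WT replicate 2, -1.27 (adjusted p = 0.104) without Ifnar1-/- replicate 1 and -1.12 (adjusted p = 0.174) without Ifnar1-/- replicate 2. Chmp4b differed by -1.20 (adjusted p = 0.07) with no filter on dim probes. Vps37b, of ESCRT-I, was lower at 13.66 and 14.23 on the WT arrays and 12.99 and 13.12 on the Ifnar1-/- arrays (log2 difference -0.89, SE 0.21, adjusted p = 0.00274). For Vps37b the difference was -0.61 (adjusted p = 0.0673) without WT replicate 2. Chmp6 and Vps25, which start the filament, were higher (1.23, adjusted p = 0.000597 for Chmp6 and 1.1, adjusted p = 0.00115 for Vps25). Vps4b, the ATPase that takes the filament apart, was not called (-0.38, adjusted p = 0.186), and 1 of its WT spots was an outlier and dropped, so its WT value rests on replicate 2 alone.

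The V-ATPase acidifies lysosomes. Of 23 tested, 10 were higher and 0 lower, with a median of 0.58 that turned to -0.02 with the 75th percentile shift, under which 3 were higher. The count of 10 was 6 without Ifnar1-/- replicate 2. Untreated BMDMs already had 10 members higher (median 0.51). Dmxl2, an assembly factor of the pump, read 6.09 and 6.73 on the WT arrays and 8.28 and 8.67 on the Ifnar1-/- arrays (log2 difference 2.06, SE 0.51, adjusted p = 0.00319). Its partner Wdr7 read 3.80 and 6.20 on the WT arrays and 6.85 and 7.13 on the Ifnar1-/- arrays (log2 difference 1.99, SE 0.64, adjusted p = 0.02), with 1 of the WT spots well above background. For Wdr7 the difference was 0.79 (adjusted p = 0.398) without WT replicate 1, 2.13 (adjusted p = 0.0544) without Ifnar1-/- replicate 1 and 1.85 (adjusted p = 0.108) without Ifnar1-/- replicate 2. Wdr7 differed by 1.40 (adjusted p = 0.0785) with the 75th percentile shift. Atp6v0d2, a subunit of macrophage and osteoclast lysosomes, was not called (log2 difference 0.69, SE 0.51, adjusted p = 0.305).

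Peroxisomes oxidize very long and branched fatty acids. Of 46 tested, 19 were higher and 1 lower (median 0.52, or 0.50 with the 75th percentile shift), and the higher count was 11 without Ifnar1-/- replicate 2. Without treatment the median was close to 0, with 2 higher and 2 lower. LPS+zVAD lowered 33 members in WT (median -1.36) and 23 in Ifnar1-/- (median -0.70), against 33.2% and 18.2% of all genes. The responses differed for 6 members (16 with slide as a fixed block), each in the higher direction. That share of 13% was near the 11.4% of all genes. Nudt7, a peroxisomal coenzyme A diphosphatase, read 6.52 and 5.97 on the WT arrays and 9.24 and 9.61 on the Ifnar1-/- arrays (log2 difference 3.18, SE 0.31, adjusted p = 3.92e-07), with responses of -4.99 in WT and -1.45 in Ifnar1-/-. Pex10, a ubiquitin ligase of the import receptor cycle, read 5.25 and 5.24 on the WT arrays and 8.12 and 8.44 on the Ifnar1-/- arrays (log2 difference 3.03, SE 0.37, adjusted p = 4.52e-06). Phyh, which starts the breakdown of phytanic acid, was the lower member at 12.20 and 11.88 on the WT arrays and 11.14 and 11.16 on the Ifnar1-/- arrays (log2 difference -0.89, SE 0.28, adjusted p = 0.0181). For Phyh the difference was -0.73 (adjusted p = 0.126) without WT replicate 1, -0.89 (adjusted p = 0.0702) without Ifnar1-/- replicate 1 and -0.90 (adjusted p = 0.0774) without Ifnar1-/- replicate 2. Pex5, the import receptor, was not called (log2 difference -0.10, SE 0.18, adjusted p = 0.687).

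Genes of mitochondrial protein import and dynamics had 30 of 53 members higher and 1 lower (median 0.59, or 0.48 with the 75th percentile shift). Gfer, the sulfhydryl oxidase of import into the intermembrane space, read 5.96 and 6.11 on the WT arrays and 9.03 and 9.45 on the Ifnar1-/- arrays (log2 difference 3.21, SE 0.38, adjusted p = 3.62e-06), and its responses were -4.28 in WT and -0.16 in Ifnar1-/-. Mief2, which recruits the fission dynamin, read 4.32 and 4.59 on the WT arrays and 6.95 and 7.56 on the Ifnar1-/- arrays (log2 difference 2.80, SE 0.28, adjusted p = 3.79e-07). Mfn2, a mitofusin, was higher by a smaller amount (log2 difference 0.45, SE 0.13, adjusted p = 0.01). For Mfn2 the difference was 0.36 (adjusted p = 0.0905) without WT replicate 2 and 0.41 (adjusted p = 0.0814) without Ifnar1-/- replicate 2. Mfn2 differed by 0.41 (adjusted p = 0.0875) with normexp background correction and 0.43 (adjusted p = 0.108) in the authors' normalized table. Dnajc19, a partner of the import motor, was the lower member at 16.47 and 16.85 on the WT arrays and 13.81 and 13.58 on the Ifnar1-/- arrays (log2 difference -2.96, SE 0.38, adjusted p = 7.8e-06), with probes that disagreed in sign. Tomm20, an outer membrane receptor, was not called (log2 difference 0.29, SE 0.21, adjusted p = 0.313).

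Nuclear pore and import genes had 31 of 58 members higher and 7 lower (median 0.51), and the higher count was 19 without Ifnar1-/- replicate 2. Ipo13, a transport receptor, read 11.91 and 11.27 on the WT arrays and 13.52 and 13.74 on the Ifnar1-/- arrays (log2 difference 2.04, SE 0.23, adjusted p = 1.74e-06), and Xpot, which exports tRNA, read 9.68 and 9.25 on the WT arrays and 11.77 and 11.66 on the Ifnar1-/- arrays (log2 difference 2.25, SE 0.40, adjusted p = 0.000219). The lower members included nucleoporins that LPS+zVAD raised in WT. Ranbp2, of the cytoplasmic filaments, read 14.35 and 14.25 on the WT arrays and 12.37 and 12.46 on the Ifnar1-/- arrays (log2 difference -1.89, SE 0.29, adjusted p = 5.08e-05), with responses of 2.19 in WT and 0.20 in Ifnar1-/-. Nup98 read 11.30 and 11.73 on the WT arrays and 10.25 and 10.34 on the Ifnar1-/- arrays (log2 difference -1.22, SE 0.19, adjusted p = 5.7e-05) and Nup153, of the basket, read 12.28 and 12.44 on the WT arrays and 11.74 and 11.64 on the Ifnar1-/- arrays (log2 difference -0.67, SE 0.16, adjusted p = 0.00272).

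Membrane genes as a whole stayed near the background. Of 610 tested, 146 were higher (23.9%) and 62 lower (10.2%), with a median log2 difference of 0.07, and the 208 called were 135 without Ifnar1-/- replicate 2.

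Solute carriers move small molecules across membranes. Of 379 listed, 263 passed the filter, 70 were higher and 28 lower, and the median of 0.20 turned to -0.10 with the 75th percentile shift. Slc28a2 and Slc28a2b, neighbouring paralogs of the concentrative nucleoside transporter whose probes can cross-hybridize, had the most negative differences of the list. Slc28a2 read 14.91 and 14.61 on the WT arrays and 11.22 and 11.71 on the Ifnar1-/- arrays (log2 difference -3.29, SE 0.37, adjusted p = 1.9e-06), and Slc28a2b read 12.97 and 12.48 on the WT arrays and 9.14 and 9.63 on the Ifnar1-/- arrays (log2 difference -3.34, SE 0.30, adjusted p = 1.32e-07). LPS+zVAD responses were 3.96 in WT and 0.21 in Ifnar1-/- for Slc28a2. Slc6a9, a glycine transporter, read 7.98 and 7.90 on the WT arrays and 10.31 and 10.57 on the Ifnar1-/- arrays (log2 difference 2.50, SE 0.56, adjusted p = 0.00147), with responses of -0.15 in WT and 4.04 in Ifnar1-/-. Slc27a3, a fatty acid transport family member, was at least 8.18-fold higher (adjusted p = 2.68e-05) by the bound for dim WT spots. Slc8a3, a sodium-calcium exchanger, read 8.40 and 6.61 on the WT arrays and 11.01 and 10.68 on the Ifnar1-/- arrays (log2 difference 3.34, SE 0.77, adjusted p = 0.00201), with probes of different sign. For Slc8a3 the difference was 2.45 (adjusted p = 0.0502) without WT replicate 2. The glucose transporter Slc2a1 and the arginine transporter Slc7a1 were not called (log2 difference 0.79, SE 0.61, adjusted p = 0.332 and log2 difference 0.24, SE 0.65, adjusted p = 0.805).

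ABC transporters had 15 of 34 tested members higher (44.1%) and 6 lower (17.6%), against 25.7% and 11.8% of all genes. The median of 0.38 turned to -0.03 with the 75th percentile shift, and the higher count was 9 without WT replicate 2. Abca17 read 14.03 and 14.52 on the WT arrays and 10.10 and 9.67 on the Ifnar1-/- arrays (log2 difference -4.39, SE 0.53, adjusted p = 4.2e-06), and Abca9 read 10.47 and 10.60 on the WT arrays and 8.52 and 8.77 on the Ifnar1-/- arrays (log2 difference -1.89, SE 0.45, adjusted p = 0.00237), both lower in Ifnar1-/-. Abcb6, a porphyrin transporter, and Abcc4, an exporter of cyclic nucleotides and prostaglandins, were higher (1.89, adjusted p = 8.23e-05 for Abcb6 and 1.72, adjusted p = 0.00211 for Abcc4). For Abcc4 the difference was 1.03 (adjusted p = 0.0717) without WT replicate 2. The cholesterol exporters Abca1 and Abcg1 were not called (log2 difference -0.32, SE 0.46, adjusted p = 0.625 and log2 difference -0.78, SE 0.46, adjusted p = 0.203).

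Ion channels had 22 of 126 tested members higher and 12 lower (median -0.17), below the background share, and the higher count was 13 without Ifnar1-/- replicate 2. Hvcn1, the voltage-gated proton channel of phagocytes, read 14.39 and 13.68 on the WT arrays and 16.90 and 16.52 on the Ifnar1-/- arrays (log2 difference 2.68, SE 0.48, adjusted p = 0.000244). Itpr1, the calcium release channel of the ER, was lower at 11.01 and 10.83 on the WT arrays and 8.30 and 8.43 on the Ifnar1-/- arrays (log2 difference -2.56, SE 0.45, adjusted p = 0.000199). Scn11a was a bound, at least 5.46-fold lower (adjusted p = 0.000512), with neither Ifnar1-/- array well above background. Kcnj2 and Trpm2 were not called (adjusted p = 0.874 and 0.781).

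Among integrins, 6 of 21 tested were higher and 1 lower (median 0.42). Itgax, the CD11c chain of myeloid cells, read 13.48 and 13.17 on the WT arrays and 15.84 and 15.70 on the Ifnar1-/- arrays (log2 difference 2.44, SE 0.28, adjusted p = 2.64e-06), and it was higher without treatment as well, by 2.98 (difference between responses -0.54, adjusted p = 0.418). Itgb3 read 8.51 and 9.80 on the WT arrays and 11.49 and 11.16 on the Ifnar1-/- arrays (log2 difference 2.17, SE 0.56, adjusted p = 0.00472), with probes of different sign. For Itgb3 the difference was 1.53 (adjusted p = 0.0864) without WT replicate 1. Itgb3 differed by 0.58 (adjusted p = 0.361) over the mean of its probes. Itgb4 was lower (-1.5, adjusted p = 0.00621). For Itgb4 the difference was -1.24 (adjusted p = 0.0706) without WT replicate 2 and -1.21 (adjusted p = 0.0843) without Ifnar1-/- replicate 2. Itgam, the CD11b chain, and Itgav were not called (log2 difference 0.70, SE 0.36, adjusted p = 0.135 and log2 difference -0.44, SE 0.36, adjusted p = 0.375).

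Tetraspanins organize proteins within membranes. Of 23 tested, 7 were higher and 1 lower, and the median of 0.32 turned to -0.20 with the 75th percentile shift. Cd9 read 15.34 and 15.70 on the WT arrays and 16.52 and 16.42 on the Ifnar1-/- arrays (log2 difference 0.95, SE 0.18, adjusted p = 0.000494), and Cd63, a marker of late endosomes and exosomes, read 17.20 and 17.38 on the WT arrays and 17.89 and 17.81 on the Ifnar1-/- arrays (log2 difference 0.56, SE 0.14, adjusted p = 0.00341), a difference that turned to -0.34 with the 75th percentile shift. Cd9 differed by 0.20 (adjusted p = 0.56) with the 75th percentile shift. Cd151 was higher (1.51, adjusted p = 0.000421), Tspan7 higher (2.59, adjusted p = 0.00502) and Upk1a lower (-1.08, adjusted p = 0.018). For Tspan7 the difference was 1.54 (adjusted p = 0.124) without WT replicate 1. That gene was well above background on 1 WT array. For Upk1a the difference was -0.93 (adjusted p = 0.113) without WT replicate 2 and -0.90 (adjusted p = 0.141) without Ifnar1-/- replicate 2.

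Annexins, dysferlin-family and other membrane repair genes had 11 of 31 tested members higher and 1 lower. The median of 0.33 turned to -0.09 with the 75th percentile shift, under which 2 were higher, and the count of 11 was 7 without WT replicate 2, 5 without Ifnar1-/- replicate 1 and 6 without Ifnar1-/- replicate 2. Ehd4, an ATPase of endosome recycling, was the lower member at 16.05 and 16.31 on the WT arrays and 13.31 and 13.56 on the Ifnar1-/- arrays (log2 difference -2.74, SE 0.47, adjusted p = 0.000138), with responses of 0.31 in WT and -2.53 in Ifnar1-/-. Anxa2 read 16.29 and 15.58 on the WT arrays and 17.20 and 17.43 on the Ifnar1-/- arrays (log2 difference 1.38, SE 0.20, adjusted p = 2.7e-05), and Cavin3, a caveolar coat protein, was higher (1.82, adjusted p = 0.000302). Anxa2 differed by 0.51 (adjusted p = 0.141) with the 75th percentile shift. Anxa1 was higher by a smaller amount (log2 difference 0.57, SE 0.18, adjusted p = 0.019), and turned to -0.34 with the 75th percentile shift. For Anxa1 the difference was 0.31 (adjusted p = 0.264) without WT replicate 2 and 0.45 (adjusted p = 0.146) without Ifnar1-/- replicate 1. Dysf, or dysferlin, was not called (adjusted p = 0.254).

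Phospholipid flippases keep phosphatidylserine on the inner leaflet, and scramblases expose it. Of 20 tested, 2 were higher and 4 lower (median -0.09). The lower ones included the flippases Atp8a1, at 15.44 and 15.84 on the WT arrays and 12.75 and 12.19 on the Ifnar1-/- arrays (log2 difference -3.17, SE 0.48, adjusted p = 4.35e-05), and Atp10a, at 9.88 and 9.86 on the WT arrays and 7.11 and 7.67 on the Ifnar1-/- arrays (log2 difference -2.48, SE 0.43, adjusted p = 0.00015). Atp10a responded by 4.35 in WT and 1.92 in Ifnar1-/-. The higher ones were Tmem30a, the shared flippase subunit (0.49, adjusted p = 0.0198), and Atp8b2, well above background on 1 Ifnar1-/- array alone and at least 2.81-fold higher (adjusted p = 0.0128). For Tmem30a the difference was 0.31 (adjusted p = 0.224) without WT replicate 1, 0.46 (adjusted p = 0.0946) without Ifnar1-/- replicate 1 and 0.53 (adjusted p = 0.0666) without Ifnar1-/- replicate 2. Tmem30a differed by 0.25 (adjusted p = 0.397) with the 75th percentile shift. Atp8b2 had an adjusted p of 0.201 without WT replicate 2 and 0.115 without Ifnar1-/- replicate 1. For Atp8b2 the adjusted p was 0.186 with the 75th percentile shift and 0.114 with normexp background correction.

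Plexins, semaphorins and cadherins had 5 of 38 tested members higher and 4 lower (median -0.23), and the higher count was 3 without Ifnar1-/- replicate 2. Sema4a, which acts on T cells and vessels, read 11.57 and 11.44 on the WT arrays and 13.69 and 13.90 on the Ifnar1-/- arrays (log2 difference 2.29, SE 0.59, adjusted p = 0.00492), and Plxna4 was higher (2.04, adjusted p = 0.00492). For Plxna4 the difference was 1.69 (adjusted p = 0.0613) without WT replicate 2 and 1.84 (adjusted p = 0.0506) without Ifnar1-/- replicate 2. Sema6d was lower at 16.84 and 17.15 on the WT arrays and 14.17 and 13.92 on the Ifnar1-/- arrays (log2 difference -2.95, SE 0.36, adjusted p = 4.55e-06), as was Cdh15 (-1.52, adjusted p = 0.00213), well above background on 1 Ifnar1-/- array. Plxna1 was not called (log2 difference -0.60, SE 0.53, adjusted p = 0.406).

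Of 54 G protein-coupled receptors of the Gpr and adhesion families tested, 8 were higher and 5 lower (median close to 0, or -0.43 with the 75th percentile shift). Adgre4, an adhesion receptor of macrophages, was lower at 11.53 and 11.41 on the WT arrays and 7.33 and 7.86 on the Ifnar1-/- arrays (log2 difference -3.88, SE 0.33, adjusted p = 5.12e-08), and without treatment by a similar amount (-3.71). Gpr85 and Gpr176 were higher (2.45, adjusted p = 0.0013 for Gpr85 and 2.44, adjusted p = 0.00177 for Gpr176). Gpr84, a receptor for medium-chain fatty acids that LPS induces, was not called (log2 difference 0.93, SE 1.38, adjusted p = 0.638).

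The cytoskeleton lists were small and mixed. Of 19 tubulins tested, 6 were higher and 2 lower, and the median of 0.11 turned to -0.46 with the 75th percentile shift. Untreated BMDMs had 8 higher and 0 lower (median 0.82). Tubg1, the γ-tubulin that nucleates microtubules, read 9.47 and 8.34 on the WT arrays and 10.997 and 11.21 on the Ifnar1-/- arrays (log2 difference 2.20, SE 0.27, adjusted p = 5.09e-06), and Tube1, the ε-tubulin of centrioles, read 4.31 and 3.26 on the WT arrays and 6.43 and 7.17 on the Ifnar1-/- arrays (log2 difference 3.01, SE 0.45, adjusted p = 4.06e-05), with 1 WT spot well above background. Tubb5, an abundant β-tubulin, was higher (1.11, adjusted p = 0.00577) and Tubb6 lower (-0.66, adjusted p = 0.0136). For Tubb5 the difference was 0.71 (adjusted p = 0.12) without WT replicate 2 and 0.99 (adjusted p = 0.0576) without Ifnar1-/- replicate 2. Tubb5 differed by 0.67 (adjusted p = 0.114) with the 75th percentile shift. For Tubb6 the difference was -0.52 (adjusted p = 0.12) without WT replicate 2, -0.62 (adjusted p = 0.0716) without Ifnar1-/- replicate 1 and -0.70 (adjusted p = 0.052) without Ifnar1-/- replicate 2. Tuba8 was a bound, at least 4.26-fold lower (adjusted p = 0.0144). Tuba8 had an adjusted p of 0.264 without WT replicate 2 and 0.0843 without Ifnar1-/- replicate 2.

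Kinesins and dyneins outside mitosis and cilia had 16 of 44 tested members higher and 4 lower, and the median of 0.22 turned to -0.01 with the 75th percentile shift. Kif13a, which carries melanosome and endosome cargo, read 9.55 and 8.47 on the WT arrays and 11.43 and 11.41 on the Ifnar1-/- arrays (log2 difference 2.41, SE 0.25, adjusted p = 8.71e-07), with responses of -2.76 in WT and -0.26 in Ifnar1-/-. Kifc1, a minus-end kinesin that also bundles spindle microtubules, read 5.22 and 4.51 on the WT arrays and 7.87 and 8.00 on the Ifnar1-/- arrays (log2 difference 3.07, SE 0.59, adjusted p = 0.000456). Kif5c and Kif26b were lower (-2.51, adjusted p = 0.00152 for Kif5c and -1.43, adjusted p = 0.000287 for Kif26b), and Kif5b, the ubiquitous kinesin-1, was not called (log2 difference -0.10, SE 0.36, adjusted p = 0.852). Of 10 septins tested, 4 were higher and 1 lower, and the higher count was 1 without WT replicate 2 and 1 without Ifnar1-/- replicate 2. Septin3 was lower at 18.54 and 18.61 on the WT arrays and 17.23 and 17.08 on the Ifnar1-/- arrays (log2 difference -1.42, SE 0.21, adjusted p = 2.7e-05), while Septin8, Septin9 and Septin10 were higher (1.14, adjusted p = 8.58e-05 for Septin8, 0.85, adjusted p = 0.00754 for Septin9 and 1.44, adjusted p = 0.018 for Septin10). For Septin9 the difference was 0.71 (adjusted p = 0.0751) without WT replicate 2 and 0.72 (adjusted p = 0.0824) without Ifnar1-/- replicate 2. For Septin10 the difference was 1.40 (adjusted p = 0.0728) without WT replicate 1, 1.47 (adjusted p = 0.064) without WT replicate 2 and 1.19 (adjusted p = 0.141) without Ifnar1-/- replicate 2. Septin10 differed by 0.94 (adjusted p = 0.0991) with the 75th percentile shift.

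The other treatments place the LPS+zVAD difference. Between the genotypes 864 genes were higher and 531 lower in Ifnar1-/- without treatment, 826 and 494 in zVAD, 2948 and 1626 in LPS, 4125 and 1896 in LPS+zVAD and 4170 and 2310 in LPS+zVAD+Nec-1. The counts were 4503 and 2542 in IFNβ, which the knockout cells cannot sense through Ifnar1.

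Mitotic genes stood higher in Ifnar1-/- in the 8 treatments. Their median log2 difference was 1.67 untreated, 1.65 in zVAD, 1.83 in LPS, 1.66 in LPS+zVAD and 2.79 in LPS+zVAD+Nec-1. It was 2.73 in IFNβ, 2.65 in IFNβ+zVAD and 2.57 in IFNβ+zVAD+Nec-1, so LPS+zVAD was among the smaller values. Peroxisome genes had medians of 0.00 untreated, 0.10 in zVAD, 0.42 in LPS, 0.52 in LPS+zVAD and 0.56 in IFNβ. BBSome genes had -0.01, 0.01, 0.50, 0.76 and 0.48 in the same order. In LPS+zVAD+Nec-1, IFNβ+zVAD and IFNβ+zVAD+Nec-1 the medians were 0.97, 0.73 and 0.76 for peroxisome genes. For BBSome genes they were 0.94, 0.59 and 0.54, so the largest median of either list was in LPS+zVAD+Nec-1. Both lists were near 0 in the states without LPS or IFNβ and higher with either, while the median of all genes ran from 0.00 to 0.18 across the treatments. Golgi genes had a median of 0.51 in LPS+zVAD and of 0.02 to 0.22 in the other treatments, and tubulins had 0.11 in LPS+zVAD and 0.37 to 1.04 in the others. Whether these differ between treatments was not tested. All treatments of 1 genotype and replicate were on 1 slide, so the slide was the same in each of these differences.

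**Figure D4:**
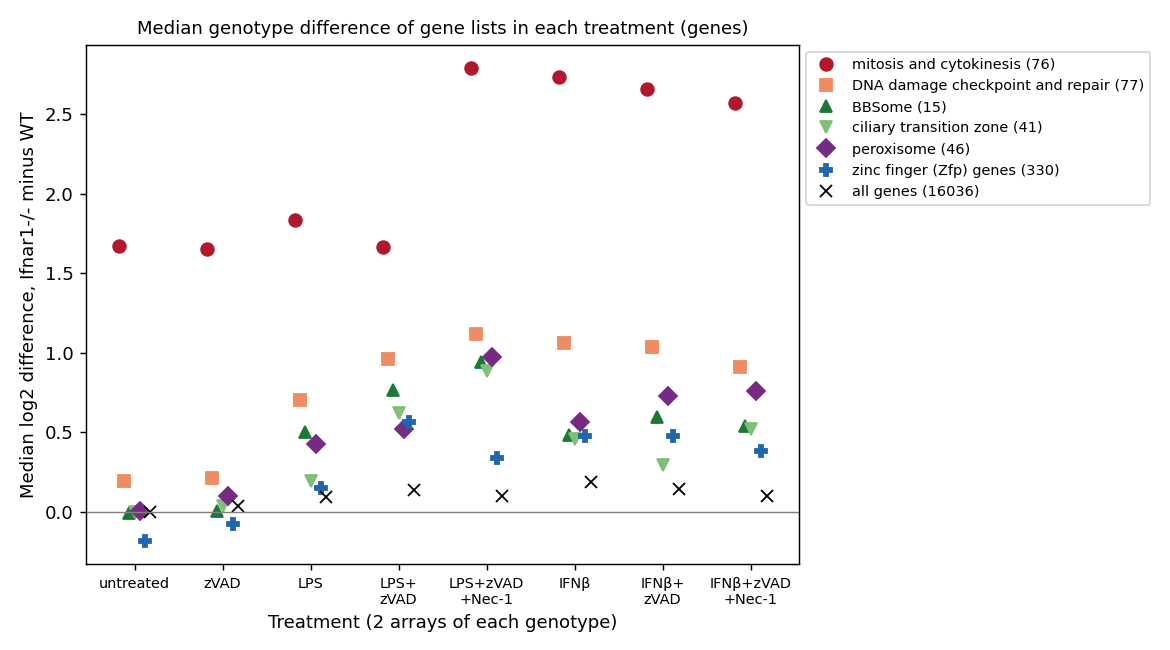
Median log2 difference between Ifnar1-/- and WT (y axis) of 6 gene lists and of all genes in each of the 8 treatments (x axis); each point is a median over the genes given in brackets, from 2 arrays of each genotype. Mitotic genes lie between 1.65 and 2.79 throughout, while the other lists go from between -0.18 and 0.19 untreated to between 0.52 and 0.96 in LPS+zVAD.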

How the data were processed

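RNA of BMDMs was hybridized to 32 single-colour Agilent mouse arrays, 1 sample each. The deposited scanner files, made with Feature Extraction 11.5.1.1 per the file headers, hold the processed signal intensity of 55681 probes, already background-subtracted. The authors also deposited a table of normalized log2 values, made with limma per the submitters' processing notes, in which 35.4% of the cells are empty. It was used as an alternative.

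Here log2 of the processed intensity was quantile normalized over the 32 arrays in R 4.3.3 with limma 3.58.1. Control spots were left out, and outlier spots were set to missing. Probes well above background on at least 50% of the arrays were kept, and the brightest probe stood for a gene, giving 16036 genes from 21478 probes. Of the probes, 33140 carry a gene symbol in the files. The main test was a limma fit of 16 group means (16 residual degrees of freedom) with Benjamini-Hochberg adjustment over all genes. The scripts were tested on simulated data. Where a probe was not well above background on either array of a group, the difference is given as a bound, the bright group's mean against the higher of the array's lowest signal well above background and the dim spot's own. No spot of the compared arrays was saturated.

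Named genes were anchors of each list, the most positive and most negative 2 calls of a list, the 10 largest differences in each direction outside the excluded lists, the 5 largest differences between responses, and Ifnar1. The lists and the comparison were chosen with earlier results of these data known. Alternatives were the 75th percentile shift, normexp with an offset of 50, no filter or a stricter filter, the authors' table, the mean of probes, fewer arrays, the replicate number or slide as a block, and leaving out each array. Promoter windows came from RefSeq (GRCm38.p6), and probe positions (mm9) from the scanner files. Results of a few members are not reported here. Precision is limited by 2 arrays for each group.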

Additional observations from a re-analysis of the deposited data

Results flagged for a closer look

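The response to LPS+zVAD differed between Ifnar1-/- and WT for 2611 of the 16036 genes tested (limma, adjusted p under 0.05), and the named genes among them are given here by the response in Ifnar1-/- minus the response in WT, on the log2 scale. Alternatives for these genes are the other settings and each array left out in turn, and a call is lost where the adjusted p reached 0.05 or more. Probes not well above background in the treated WT arrays (Mlh3, Ttc30b, Ttc30a2, Bbs12, Slc27a3, Eid2 and Senp8) or in the treated Ifnar1-/- arrays (Scn11a, Tuba8, Ifit1bl1, Ifi214, Ifi213, Dll1 and Phf11c) give values that depend on dim spots.

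Among cell cycle and repair genes, the response was more negative in Ifnar1-/- by a difference of -4.35 for Ccnd1, -4.24 for Cdc6, -4.12 for Tpx2, -3.18 for Ccnd2, -2.30 for Tyms, -2.08 for Sesn3 and -1.97 for Gadd45g. Further values were -1.95 for Pcna and -1.65 for Pttg1. It was more positive in Ifnar1-/- by a difference of 3.89 for Mlh3, 3.19 for Cdkn2b, 2.22 for Orc5, 2.04 for Cdkn1b and 1.93 for Sesn1. The call was lost in 9 of 19 alternatives for Cdkn2b, 8 of 19 for Sesn1, 4 of 19 for Sesn3, 3 of 19 for Orc5, 1 of 18 for Mlh3 and 1 of 19 for Tyms.

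Among cilium and centrosome genes, the response was more negative in Ifnar1-/- by a difference of -2.85 for Tmem67, -2.56 for Sass6, -2.16 for Cenpj and -1.46 for Ift172. It was more positive in Ifnar1-/- by a difference of 3.08 for Ttc30b, 3.03 for Bbs12, 2.93 for Cep78, 2.44 for Ttc30a2, 2.44 for Tubgcp5, 2.40 for Fbf1 and 2.20 for Tmem17. The call was lost in 9 of 19 alternatives for Ift172, 4 of 18 for Ttc30a2, 3 of 18 for Bbs12, 2 of 19 for Fbf1 and 1 of 18 for Tmem17 and Ttc30b.

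Among organelle genes, the response was more negative in Ifnar1-/- by a difference of -2.0 for Ranbp2, -1.63 for Dnajc19, -1.60 for Arf4, -1.41 for Vps37b, -1.06 for Snx2, -0.97 for Golga3 and -0.97 for Nup98. Further values were -0.91 for Sec24b. It was more positive in Ifnar1-/- by a difference of 4.11 for Gfer, 3.54 for Nudt7, 2.61 for Pex10, 2.30 for Golga1, 2.22 for Tgfbrap1, 2.12 for Mief2 and 2.10 for Ipo13. Further values were 2.03 for Xpot, 1.89 for Vps33b, 1.61 for Mogs, 1.22 for Chmp6 and 0.75 for Sec61a1. The call was lost in 11 of 19 alternatives for Sec61a1, 10 of 19 for Sec24b, 9 of 19 for Golga3, 8 of 18 for Chmp6, 8 of 19 for Dnajc19, 7 of 19 for Nup98, 6 of 19 for Snx2 and Xpot and 1 of 19 for Mief2.

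Among membrane genes, the response was more negative in Ifnar1-/- by a difference of -4.01 for Slc28a2b, -3.76 for Slc28a2, -3.65 for Scn11a, -2.84 for Ehd4, -2.57 for Abca17, -2.43 for Atp10a and -2.01 for Itpr1. Further values were -1.54 for Sema6d and -1.53 for Cdh15. It was more positive in Ifnar1-/- by a difference of 4.19 for Slc6a9, 3.47 for Slc27a3, 3.18 for Sema4a, 2.47 for Gpr85, 1.94 for Abcb6 and 1.77 for Abcc4. The call was lost in 10 of 18 alternatives for Abcc4 and Cdh15, 10 of 19 for Sema6d, 9 of 19 for Gpr85 and Itpr1, 4 of 19 for Abca17, 3 of 19 for Atp10a, 2 of 19 for Sema4a, 1 of 19 for Abcb6 and 1 of 18 for Scn11a and Slc27a3.

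Among cytoskeleton genes, the response was more negative in Ifnar1-/- by a difference of -3.08 for Tuba8, -2.35 for Kif5c and -1.77 for Tubb6. It was more positive in Ifnar1-/- by a difference of 2.50 for Kif13a, 2.15 for Tube1, 1.40 for Tubg1 and 0.81 for Septin8. The call was lost in 12 of 19 alternatives for Septin8, 10 of 18 for Kif5c, 8 of 18 for Tube1, 6 of 18 for Tuba8 and 5 of 19 for Tubg1.

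Among the genes with the largest genotype differences of all, the response was more negative in Ifnar1-/- by a difference of -7.12 for Lhx2, -6.76 for Dll1, -6.02 for Ifi214, -5.94 for Phf11c, -3.34 for Ifi213, -3.12 for Enpp4 and -2.92 for Ifit1bl1. Further values were -2.46 for Oas1f. It was more positive in Ifnar1-/- by a difference of 5.48 for Fam78a, 4.07 for Scd2, 4.02 for Senp8, 3.75 for Artn, 3.61 for Eid2 and 3.42 for Acpp. The call was lost in 9 of 18 alternatives for Ifit1bl1, 5 of 18 for Ifi213, 4 of 19 for Artn and 2 of 18 for Senp8. It was also lost in 1 of 19 for Fam78a, whose value turned to -0.42 with the stricter filter (limma, adjusted p = 0.724).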

How the results depend on the processing

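The count of genes called between the genotypes was within 1.5 times of 6021 under each alternative of scaling, background, filter, probe choice, arrays in the fit and block, from 4104 with the compared arrays alone to 7457 with the replicate block. Leaving out 1 array gave 3951 to 5187, the lowest without Ifnar1-/- replicate 2. The difference between the responses had 2611 calls, and 4657 with slide as a random block, 4888 with slide as a fixed block and 1443 to 2768 without 1 array, with 1443 without Ifnar1-/- replicate 2, 1732 without WT replicate 2 and 1530 without untreated Ifnar1-/- replicate 1. The response of Ifnar1-/- had 4656 calls and 2567 to 3278 without 1 array, each under the total, with 2567 without treated replicate 1, 3103 without untreated replicate 1 and 2762 without untreated replicate 2. Of the theme totals, cilium fell from 72 to 45 (range 45 to 65), organelle from 211 to 140 (range 140 to 188) and membrane from 208 to 135 (range 135 to 179) without Ifnar1-/- replicate 2. With the compared arrays alone, organelle had 88, where 2 residual degrees of freedom limit the test. With the 75th percentile shift the share of higher calls was 57.3% against 70.2% for the difference between responses and 46.8% against 35.3% for the WT response.

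Named genes changed sign as follows, and the cause was not tested. With the 75th percentile shift Anxa1 was at -0.34, Cd63 -0.34, Cog3 -0.10, Sec61a1 -0.0805, Slc7a1 -0.15, Tomm20 -0.33 and Trpm2 -0.60. With normexp background correction Cog3 was at -0.025, Kif5b 0.0473 and Trpm2 -0.0689. In the authors' table Cog3 was at -0.0546, Kif5b 0.0349, Trpm2 -0.17 and Vps35 -0.0154. Over the mean of all probes Trpm2 was at -0.82 and Vps4b at 2.21. With the stricter filter, which can put another probe in place, Bbs1 was at -0.20, Fam78a at -0.73 (difference between responses -0.42) and Vps4b at 0.94. Without 1 array the range was -0.14 to 0.59 for Cep164, -0.20 to 0.29 for Cog3, -0.71 to 0.49 for Ifnar1, -0.88 to 0.0099 for Itgav, -0.83 to 0.28 for Kcnj2. It was -0.36 to 0.15 for Kif5b, -0.24 to 0.0285 for Pex5, -0.20 to 0.54 for Trpm2 and -0.13 to 0.25 for Vps35, and for the difference between responses -0.0958 to 1.80 for Plk1. Among the other named values and lists, 24 calls were lost with normexp, 18 with the 75th percentile shift, 18 with no filter, 13 in the authors' table, 9 over the mean of probes and 40 with the compared arrays alone. Leaving out 1 LPS+zVAD array lost 20 without WT replicate 1, 54 without WT replicate 2, 34 without Ifnar1-/- replicate 1 and 48 without Ifnar1-/- replicate 2, and leaving out 1 untreated array lost 19 to 24.

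Same-numbered arrays of the 2 genotypes share only a number and lie on different slides. Their deviations from the group means correlated at 0.129 in LPS+zVAD and 0.156 untreated. Within a genotype, the treated and untreated arrays of the same number share a slide. Their deviations correlated at 0.43 in WT and 0.496 in Ifnar1-/-, and the consensus correlation of arrays on the same slide was 0.389. The main fit treated the arrays as independent, so its p-values do not take this correlation into account. The replicate block gave 7457 calls between the genotypes, 3805 for the difference between responses and 5893 for the response of Ifnar1-/-, and called Copa (adjusted p = 0.00713), Dysf (0.0467), Itgam (0.0091), Plxna1 (0.0242), Sec24d (0.0318) and the response difference of Kif18a (0.0249) in addition. Each group has 2 arrays, so a lone array is assumed to vary like the other groups, and probes at background carry bounds in place of levels.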

Other observations

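Over all genes outside the interferon, antioxidant, editing and MAPK lists, the largest positive differences in LPS+zVAD included secreted and matrix genes. Mmp9, a gelatinase that degrades matrix, had a log2 intensity of 5.87 and 3.30 on the WT arrays and 9.97 and 10.09 on the Ifnar1-/- arrays (log2 difference 5.44, SE 1.05, adjusted p = 0.000444). Scd2, a desaturase of fatty acids, read 8.85 and 8.04 in WT and 13.78 and 13.30 in Ifnar1-/- (log2 difference 5.09, SE 0.47, adjusted p = 1.89e-07). Angptl2, a secreted angiopoietin-like protein, differed by 4.84, adjusted p = 8.54e-05, and Artn, a ligand of the GDNF family, by 4.78, adjusted p = 4.94e-05. Pdgfrb, a receptor typical of pericytes and fibroblasts, differed by 4.79, adjusted p = 0.000786, beside summed intensities of stromal, erythroid and mast cell markers of 1363 and 1497 in WT and 3696 and 2335 in Ifnar1-/-, and the part of such cells was not tested. Cyp1b1, a cytochrome of steroid and xenobiotic metabolism, and Acpp, a phosphatase, differed by 4.29, adjusted p = 0.000189 and 4.37, adjusted p = 1.17e-06. Eid2, an inhibitor of differentiation, was at least 22.4-fold higher and Senp8, which removes Nedd8, at least 15.7-fold higher. Fam78a differed by 5.05, adjusted p = 3.72e-08, with probes that disagreed in sign.

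The largest negative differences included interferon-family genes that the excluded lists do not name. Oas1f, of the oligoadenylate synthetase family, read 16.51 and 16.68 in WT and 6.28 and 6.01 in Ifnar1-/- (log2 difference -10.45, SE 0.27, adjusted p = 3.59e-15), and Ifit3b differed by -8.06, adjusted p = 1.65e-08. Ifit1bl1, Ifi214 and Ifi213 were at least 483-fold, at least 197-fold and at least 183-fold lower, with both Ifnar1-/- arrays not well above background. Of other families, Lhx2, a LIM homeobox factor, read 13.45 and 13.66 in WT and 6.09 and 6.66 in Ifnar1-/- (log2 difference -7.18, SE 0.59, adjusted p = 3.72e-08), and Dll1, a Notch ligand, was at least 75.6-fold lower. Without treatment these genes differed by -0.06 for Lhx2 and 0.21 for Dll1, and neither was called there. Enpp4, an ectonucleotidase, differed by -6.29, adjusted p = 1.27e-10. Phf11c was at least 71.4-fold and Vmn1r65, of a vomeronasal receptor family, at least 41.9-fold lower. Of 14 genes next to Ifnar1 on its chromosome that were tested, 4 were higher (28.6%) and 2 lower (14.3%) in Ifnar1-/-. These shares were near the 25.7% and 11.8% of all genes tested. For the difference between the responses 5 of the 14 were higher (35.7%) and 2 lower, against 11.4% and 4.86% of all genes. Whether their position plays a part was not tested.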
